A study of Mus musculus with 13 samples.

Results

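CD300, TREM and paired immunoglobulin-like receptors of myeloid cells were followed in LPS-activated bone marrow-derived macrophages (BMDMs) with and without ATP citrate lyase (*Acly*). The 10 genes, out of 24520 named genes in the count table, were *Cd300a*, *Cd300e*, *Cd300ld*, *Cd300lf*, *Tarm1*, *Trem1*, *Trem2*, *Pirb*, *Lilrb4a* and *Sirpa*. They were chosen by symbol from receptor families, with earlier results of these libraries known, and each was represented by the RefSeq transcript selected on the highest total count over all 13 libraries. *Tarm1* and *Cd300e* belong in addition to a group of LPS-responsive genes that had already been chosen on these same libraries. RNA-seq was made from BMDMs of female mice, grown from bone marrow in medium conditioned by L929 cells and stimulated with LPS, a bacterial cell wall component, for 3 or 24 h. In AclyM-KO mice, made from Acly fl/fl mice on the C57Bl/6J background, a floxed *Acly* exon was removed by Cre under the *Lyz2* (LysM) promotor, which is active in myeloid cells other than macrophages too. Control mice, labelled WT, were Acly fl/fl, so both groups carried the floxed alleles. There were 3 control and 3 AclyM-KO libraries after 3 h, and 4 control and 3 AclyM-KO libraries after 24 h. Every library was LPS-treated, the age of the donor mice was not given in the sources used here, and the labels do not say whether replicates came from separate mice, so p-values measure the spread between these libraries.

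Paired receptors are families in which inhibitory and activating members with similar extracellular domains are expressed on the same cells. The inhibitory members carry tyrosine motifs (ITIMs) in their cytoplasmic tail that recruit the phosphatases SHP-1 (*Ptpn6*), SHP-2 (*Ptpn11*) or SHIP-1 (*Inpp5d*), and here these are *Cd300a*, *Cd300lf*, *Pirb*, *Lilrb4a* and *Sirpa*. The activating members have short tails and signal through ITAM-bearing adaptors, DAP12 (*Tyrobp*) or the Fc receptor gamma chain (*Fcer1g*), to the kinase Syk, and here these are *Cd300e*, *Cd300ld*, *Tarm1*, *Trem1* and *Trem2*. In macrophages these receptors set thresholds for Toll-like receptor signalling, phagocytosis and the uptake of lipids and dying cells.

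Total counts were 21274102 to 59577343 in 12 libraries. Control 24 h replicate 1 held 34467 counts, so that 1 count in it stood for 22.4 CPM (counts scaled to a common library size, with TMM normalization), and it was left out of the values below unless stated otherwise. This leaves 3 libraries per group. *Acly* was 105.9 ± 1.20 CPM in control and 41.8 ± 4.25 CPM in AclyM-KO libraries after 3 h, and 109.8 ± 2.78 against 29.9 ± 0.76 CPM after 24 h LPS (SD, n = 3 each). All 9 macrophage markers listed were detected in all 12 libraries, with *Adgre1* at 832 to 1546 CPM. Of 13 neutrophil markers, *Ly6g* and *Retnlg* were at 0 in all 12 libraries, and the summed level of the list, most of it *Csf3r*, was 103 to 109 CPM in control and 108 to 116 CPM in AclyM-KO libraries after 3 h, and 99.3 to 106 against 103 to 115 CPM after 24 h. Summed dendritic cell markers reached at most 9.10 CPM, B cell markers 1.05 CPM, fibroblast markers 1.97 CPM and erythroid markers 0.44 CPM. The T and NK cell list, at 4.63 to 11.8 CPM, was almost all *Cd247*, with *Cd3e* at no more than 2 counts. The mast cell, basophil and eosinophil list was 28.6 to 37.3 CPM after 3 h, when it was almost all *Ccr3*, and 0.50 to 1.15 CPM after 24 h. In bulk RNA, fewer cells that express a gene and less RNA per cell cannot be told apart.

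The 4 CD300 genes, *Cd300a*, *Cd300ld*, *Cd300e* and *Cd300lf*, lie in a cluster on chromosome 11 of GRCm38 between 114890041 and 115133992, the same chromosome as *Acly*, which ends 14.4 Mb before the cluster. *Tarm1* (chromosome 7, 3486500 to 3502624) and *Pirb* (chromosome 7, 3711409 to 3720391) lie in the leukocyte receptor complex, *Trem1* (48232768 to 48246924) and *Trem2* (48346401 to 48354147) in the TREM cluster on chromosome 17, *Lilrb4a* on chromosome 10 (51490956 to 51496611) and *Sirpa* on chromosome 2 (129592835 to 129632228). Because families of this kind hold near-identical copies, the share of each transcript's 50-base words that also occur in transcripts of other genes was counted. It was 0% for *Cd300e*, *Tarm1*, *Trem1*, *Trem2* and *Sirpa*, and 3.31 to 6.37% for *Cd300a*, *Cd300ld* and *Cd300lf*. It was 27.8% for *Lilrb4a*, all shared with *Lilr4b*, and 37.3% for *Pirb*, with 21.8% shared with *Gm14548*, so the counts of *Lilrb4a* and *Pirb* are uncertain to that extent. *Tarm1* overlaps *Gm44165* and *Lilrb4a* overlaps *Gm49339* on the same strand, while *Cd300lf* overlaps *Rab37*, *Trem1* overlaps AC241601.2 and *Lilrb4a* overlaps *Gm40645* on the other strand. The strand setting of the counting is not given in the sources used here.

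Promoters are shown for 4 genes on which the results below turn: *Tarm1* and *Cd300e*, which differed between genotypes after 24 h, and *Cd300lf* and *Trem2*, which rose and fell with time, respectively. Each line holds the 250 bases before the RefSeq transcription start, 5′ to 3′ on the gene's strand (RefSeq, GRCm38.p6). A RefSeq entry was matched for 8 of the 10 genes, and *Lilrb4a* and *Sirpa* were not matched. Capitals mark matches, on either strand, to a set of short motifs: AP-1 (TGANTCA), CRE (TGACGTCA), ETS (GAGGAA), C/EBP (TTNCNNCAA), and the ISRE and NF-kB consensus by name. None of the matches in the printed windows overlap each other.
*Tarm1*, chr7:3502625-3502874, minus strand: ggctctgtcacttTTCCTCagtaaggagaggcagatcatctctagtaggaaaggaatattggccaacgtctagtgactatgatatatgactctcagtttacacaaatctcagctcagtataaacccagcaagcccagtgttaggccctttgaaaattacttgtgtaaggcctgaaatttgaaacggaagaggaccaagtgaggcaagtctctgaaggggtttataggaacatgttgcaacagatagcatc
*Cd300e*, chr11:115062040-115062289, minus strand: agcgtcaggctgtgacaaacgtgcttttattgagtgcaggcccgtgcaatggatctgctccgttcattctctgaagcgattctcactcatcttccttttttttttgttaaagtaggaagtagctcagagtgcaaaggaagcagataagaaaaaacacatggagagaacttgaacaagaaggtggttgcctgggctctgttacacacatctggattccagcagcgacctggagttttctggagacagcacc
*Cd300lf*, chr11:115133993-115134242, minus strand: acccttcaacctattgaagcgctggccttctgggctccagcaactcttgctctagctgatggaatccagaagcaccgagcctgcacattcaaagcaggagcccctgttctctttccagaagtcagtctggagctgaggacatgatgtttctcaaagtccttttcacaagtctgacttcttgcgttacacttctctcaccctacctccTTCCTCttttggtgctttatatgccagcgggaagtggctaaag
*Trem2*, chr17:48346151-48346400, plus strand: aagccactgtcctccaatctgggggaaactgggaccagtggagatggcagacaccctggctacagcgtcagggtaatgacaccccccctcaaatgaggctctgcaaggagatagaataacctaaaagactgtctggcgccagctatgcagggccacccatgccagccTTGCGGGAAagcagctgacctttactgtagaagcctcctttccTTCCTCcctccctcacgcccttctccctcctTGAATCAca
The *Tarm1* window held 1 ETS match and the *Cd300lf* window 1 ETS match, a motif found in 23.3% of all 32841 promoter windows of this length. The *Cd300e* window held no match to any of these motifs. In GENCODE the *Cd300e* gene reaches 115062177, so the part of its window from 115062040 to there lies inside the gene by that annotation. The *Trem2* window held an AP-1 match 9 to 3 bases before the start, a motif found in 6.75% of all windows, and 1 ETS and 1 C/EBP match, the latter found in 10.6%. The NF-kB consensus was found in 3.90% of all windows, CRE in 1.55% and ISRE in 2.98%, and in none of the printed ones. A match is a description of letters in the window, and its absence says nothing about the factor.

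Between 3 and 24 h of LPS the receptors moved in opposite directions, and the activating and inhibitory groups were each split. Of the 9 genes tested, *Cd300e*, *Cd300lf* and *Tarm1* rose and *Trem2*, *Cd300ld* and *Cd300a* fell, in control and in AclyM-KO macrophages alike. Changed means here that the log2 fold change exceeded 0.75 in size and that the p-value of the quasi-likelihood test in edgeR, adjusted over all transcripts by Benjamini-Hochberg, was below 0.05. This held for 6 of the 9 genes in each genotype, 3 higher and 3 lower, and for 40.4% of the 11949 genes tested in control (20.9% higher, 19.5% lower) and 41.9% in AclyM-KO macrophages. *Tarm1* and *Cd300e*, already chosen on these libraries as LPS-responsive, are among the 6, so this count is a description. *Trem1* was under the filter on low counts. *Pirb*, *Lilrb4a* and *Sirpa*, the more abundant inhibitory receptors, stayed within the fold threshold. The comparisons of time and of genotype share libraries, and their values are given side by side.

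**Figure D1:**
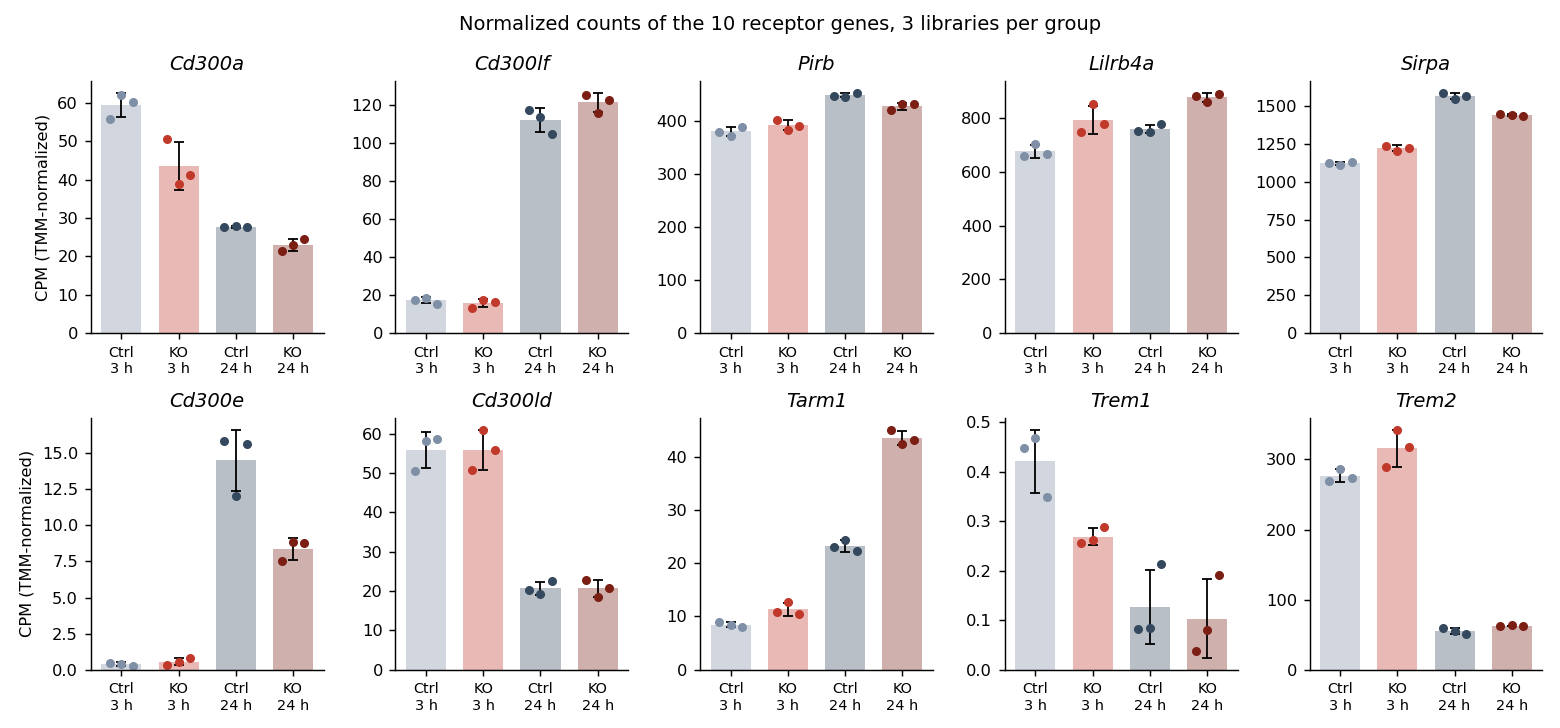
TMM-normalized CPM of the 10 receptor genes (linear axes from 0). Points are libraries, bars are means and error bars SD of 3 libraries in control (Ctrl) and AclyM-KO (KO) macrophages after 3 and 24 h LPS, without control 24 h replicate 1. The upper row holds the inhibitory and the lower row the activating receptors. *Tarm1* was 23.2 CPM in control and 43.5 CPM in AclyM-KO macrophages after 24 h, and *Cd300e* 14.5 against 8.38 CPM.

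Levels were compared between genes per length, as CPM per kilobase of the matched GENCODE transcript. In control macrophages after 3 h LPS the order was *Lilrb4a* (490 ± 17.5), *Sirpa* (294 ± 2.33), *Trem2* (262 ± 8.60), *Pirb* (99.4 ± 2.15), *Cd300ld* (21.1 ± 1.70), *Cd300a* (12.8 ± 0.68), *Cd300lf* (9.14 ± 0.82), *Tarm1* (5.51 ± 0.34), *Cd300e* (0.19 ± 0.06) and *Trem1* (0.14 ± 0.02 CPM per kb, SD, n = 3). Only the last neighbours in that order, *Cd300e* and *Trem1*, had overlapping libraries. After 24 h in control macrophages, *Cd300lf*, at 59.5 ± 3.38 CPM per kb, stood above *Trem2*, at 52.4 ± 4.32, with overlapping libraries. *Tarm1*, at 15.1 ± 0.74, stood above *Cd300ld*, at 7.81 ± 0.67, and *Cd300e*, at 6.95 ± 1.01, overlapped both *Cd300ld* and *Cd300a* (5.95 ± 0.04). *Lilrb4a* (551 ± 11.1) and *Sirpa* (410.1 ± 5.30) again had the most CPM per kb, and *Pirb* (117 ± 0.94) came next in place of *Trem2*. In AclyM-KO macrophages after 24 h, *Tarm1* reached 28.3 ± 0.89 CPM per kb and *Cd300e* 4.01 ± 0.36, which placed *Cd300e* below *Cd300a*, at 4.94 ± 0.35, with no overlap of the libraries.

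**Figure D2:**
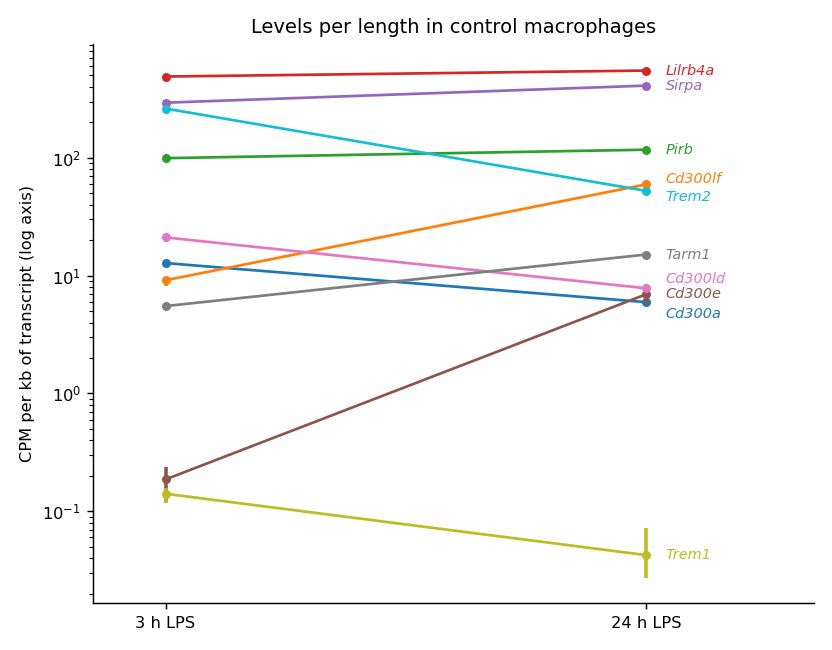
Mean CPM per kb of transcript (log axis) of each receptor gene in control macrophages after 3 and 24 h LPS. Vertical bars span the lowest and highest of 3 libraries. The lines of *Trem2*, from 262 to 52.4, and *Cd300lf*, from 9.14 to 59.5, cross between the times.

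*Cd300e*, an activating CD300 receptor that signals through DAP12, had the largest rise of the 10. The control libraries held 10, 9 and 5 counts after 3 h (0.50, 0.42 and 0.25 CPM) and 386, 283 and 1024 counts after 24 h (15.8, 12.1 and 15.6 CPM, replicates 2, 3 and 4). The AclyM-KO libraries held 7, 12 and 17 counts after 3 h (0.36, 0.52 and 0.82 CPM) and 200, 220 and 229 counts after 24 h (7.51, 8.85 and 8.79 CPM). The gene was therefore near the limit of detection after 3 h in both genotypes, and all 24 h libraries lay far above. The log2 fold change of 24 h against 3 h was 5.21 (SE 0.21, adjusted p = 5.46e-20 by edgeR), or 37.0-fold, in control and 3.87 (SE 0.21, adjusted p = 1.32e-16), or 14.6-fold, in AclyM-KO macrophages. Among all genes tested, 0.68% had a change with time as large as that of *Cd300e* in control macrophages.

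*Cd300lf* (CLM-1), an inhibitory receptor for phosphatidylserine and ceramide, also rose. It was 17.6, 18.5 and 15.5 CPM in control and 13.2, 17.4 and 16.3 CPM in AclyM-KO libraries after 3 h. After 24 h it was 118, 114 and 105 CPM in control and 126, 116 and 123 CPM in AclyM-KO libraries. All 24 h libraries lay above all 3 h libraries, and the genotypes overlapped at both times. The rise was 2.70 on the log2 scale (SE 0.08, adjusted p = 5.21e-22) in control and 2.95 (SE 0.08, adjusted p = 9.20e-23) in AclyM-KO macrophages, or 6.50-fold and 7.73-fold.

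*Tarm1* (T cell-interacting, activating receptor on myeloid cells 1), which signals through the Fc receptor gamma chain, was 9.04, 8.33 and 8.03 CPM in control and 10.9, 12.7 and 10.4 CPM in AclyM-KO libraries after 3 h. After 24 h it was 23.0, 24.4 and 22.2 CPM in control and 45.1, 42.4 and 43.1 CPM in AclyM-KO libraries. The 4 groups did not overlap, and the AclyM-KO libraries after 24 h stood well above all others. The log2 fold change with time was 1.45 (SE 0.09, adjusted p = 1.17e-15) in control and 1.94 (SE 0.08, adjusted p = 1.12e-19) in AclyM-KO macrophages.

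*Trem2*, a DAP12-coupled receptor for lipids and lipoproteins known from microglia and foamy macrophages, had the largest fall. It was 269.6, 287 and 274 CPM in control and 289, 342 and 317 CPM in AclyM-KO libraries after 3 h. After 24 h it was 60.1, 54.8 and 51.1 CPM in control and 62.2, 63.2 and 61.9 CPM in AclyM-KO libraries. The 24 h libraries held much less *Trem2* than the 3 h libraries in either genotype, with ratios of 0.199 and 0.197. The log2 fold change was -2.33 (SE 0.06, adjusted p = 3.05e-24) in control and -2.34 (SE 0.06, adjusted p = 2.89e-24) in AclyM-KO macrophages.

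*Cd300ld* (CLM-5), an activating receptor coupled to the Fc receptor gamma chain, was 50.6, 58.1 and 58.7 CPM in control and 50.7, 61.0 and 55.9 CPM in AclyM-KO libraries after 3 h, and 20.2, 19.2 and 22.6 against 22.7, 18.6 and 20.7 CPM after 24 h. It fell by 1.42 (SE 0.08, adjusted p = 9.56e-15) in control and by 1.43 (SE 0.08, adjusted p = 1.20e-14) on the log2 scale in AclyM-KO macrophages. *Cd300a*, an inhibitory receptor that binds phosphatidylserine and phosphatidylethanolamine on dying cells, was 55.9, 62.0 and 60.3 CPM in control and 50.5, 39.0 and 41.1 CPM in AclyM-KO libraries after 3 h. After 24 h it was 27.6, 27.8 and 27.5 CPM in control and 21.3, 23.0 and 24.6 CPM in AclyM-KO libraries. It fell with time by 1.10 (SE 0.08, adjusted p = 1.10e-13) in control and by 0.92 (SE 0.08, adjusted p = 1.81e-11) in AclyM-KO macrophages, and the genotypes did not overlap at either time. Outside *Trem1*, every gene's 24 h libraries lay wholly above or below its 3 h libraries in both genotypes, which was so for 77.5% of all genes tested in control and 76.8% in AclyM-KO macrophages.

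The 3 abundant inhibitory receptors varied little with time. *Sirpa*, the receptor for the "don't eat me" ligand CD47, was 1125, 1114 and 1132 CPM in control and 1240.1, 1202 and 1226 CPM in AclyM-KO libraries after 3 h, and 1588, 1548 and 1569 against 1449, 1444 and 1436 CPM after 24 h. Its log2 fold change with time was 0.48 (SE 0.04, adjusted p = 8.98e-12) in control and 0.24 (SE 0.04, adjusted p = 6.72e-06) in AclyM-KO macrophages. *Pirb*, a receptor for MHC class I, was 372 to 389 CPM in control and 383 to 402 CPM in AclyM-KO libraries after 3 h, and 445 to 452 against 420.2 to 432 CPM after 24 h. *Lilrb4a* (gp49B) was 658, 704 and 668 CPM in control and 748, 852 and 777 CPM in AclyM-KO libraries after 3 h, and 754, 749 and 778 against 882, 859 and 890.4 CPM after 24 h. The log2 fold changes with time were 0.24 and 0.13 for *Pirb* and 0.17 and 0.15 for *Lilrb4a*, in control and AclyM-KO macrophages respectively, under the fold threshold and with adjusted p-values of at most 0.0114. By the adjusted p-value alone all 9 genes passed in both genotypes, against 75.0% of all genes tested in control and 75.7% in AclyM-KO macrophages.

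*Trem1*, the DAP12-coupled receptor that amplifies Toll-like receptor responses and is best known from neutrophils, was barely detected. Its counts were 9, 10 and 7 in control and 5, 6 and 6 in AclyM-KO libraries after 3 h, and 2, 2 and 14 against 1, 2 and 5 after 24 h. From the summed counts of *Trem1*, the ratio of 24 h to 3 h was 0.376 in control (exact 95% interval 0.194 to 0.713, for counting error only) and 0.383 in AclyM-KO macrophages (0.143 to 0.937). The ratio of AclyM-KO to control was 0.637 after 3 h (0.324 to 1.22) and 0.649 after 24 h (0.244 to 1.57), so a difference between genotypes was not detectable at this depth.

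**Figure D3:**
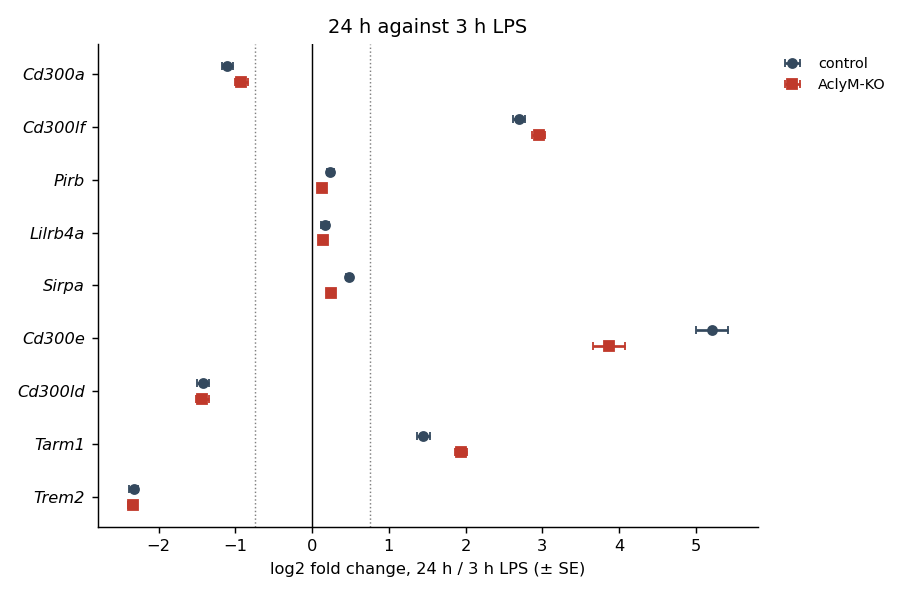
Log2 fold change of 24 h against 3 h LPS for the 9 genes tested, in control (circles) and AclyM-KO macrophages (squares), with SE from the fit of 12 libraries. Dotted lines mark the fold threshold of 0.75. The rise of *Cd300e* was 5.21 in control and 3.87 in AclyM-KO macrophages, while the fall of *Trem2* was -2.33 and -2.34.

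The second comparison asked how the receptors differed between AclyM-KO and control macrophages at each time. After 3 h LPS, 0 of the 9 genes tested passed both thresholds in edgeR and 0 in DESeq2, where 2.00% of all genes tested did in edgeR, and 5 of the 9 had an unadjusted p-value under 0.05. By the adjusted p-value alone, which 15.4% of all genes tested passed after 3 h, the same 5 genes passed. *Cd300a* had a log2 fold change of -0.45 (SE 0.08, adjusted p = 1.14e-04 by edgeR), the largest in size of these, with every AclyM-KO library below every control. *Tarm1* had 0.43 (SE 0.10, adjusted p = 0.00267), *Lilrb4a* 0.23 (SE 0.05, adjusted p = 0.00144), *Trem2* 0.19 (SE 0.06, adjusted p = 0.0233) and *Sirpa* 0.12 (SE 0.04, adjusted p = 0.0449), each with every AclyM-KO library above every control. With control 24 h replicate 1 in the fit, the adjusted p-values of *Trem2* and *Sirpa* after 3 h were 0.292 and 0.304. They were also over 0.05 for *Trem2* without AclyM-KO 3 h replicate 2 or 3 or control 3 h replicate 1 or 3 (up to 0.104), and for *Sirpa* without AclyM-KO 3 h replicate 1 or 3 or any control 3 h library (up to 0.121). *Cd300e*, at 0.54 (SE 0.41, adjusted p = 0.417), *Cd300lf*, at -0.13 (SE 0.09, adjusted p = 0.364), *Pirb*, at 0.04 (SE 0.04, adjusted p = 0.580), and *Cd300ld*, at 0.002 (SE 0.08, adjusted p = 0.992), had overlapping libraries.

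After 24 h LPS, *Tarm1* was higher and *Cd300e* lower in AclyM-KO macrophages past both thresholds, 2 of 9 where 1.37% of all genes tested were changed (0.895% higher and 0.477% lower). *Tarm1* was 23.2 ± 1.13 CPM in control and 43.5 ± 1.37 CPM in AclyM-KO macrophages (SD, n = 3 each), a log2 fold change of 0.91 (SE 0.07, adjusted p = 1.79e-10), or 1.88-fold. *Cd300e* was 14.5 ± 2.12 against 8.38 ± 0.76 CPM, a log2 fold change of -0.80 (SE 0.12, adjusted p = 1.38e-05), or 0.573 of the control level. For *Tarm1* every AclyM-KO library lay above every control, and for *Cd300e* below. Since both genes had already been chosen on these libraries, their differences after 24 h are a description and not independent evidence. *Cd300e* lay close to the fold threshold. Its log2 fold change was -0.73 without AclyM-KO 24 h replicate 1, -0.75 (under the threshold) without control 24 h replicate 2 and -0.74 without control 24 h replicate 4, with adjusted p-values of at most 9.26e-04, and -0.80 with control 24 h replicate 1, in which the gene had 0 counts.

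The other receptors stayed within the fold threshold after 24 h. *Lilrb4a* had a log2 fold change of 0.21 (SE 0.05, adjusted p = 0.00356) and *Cd300a* one of -0.27 (SE 0.08, adjusted p = 0.0227), in the same directions as after 3 h and again without overlap of the libraries. *Lilr4b*, with which *Lilrb4a* shares 27.8% of its 50-base words, had 0.30 after 3 h (adjusted p = 1.47e-04) and 0.16 after 24 h (adjusted p = 0.0352). How far reads of either gene entered the count of the other was not tested. The adjusted p-value of *Cd300a* after 24 h was over 0.05 without AclyM-KO 24 h replicate 1 (0.1435) or 2 and without control 24 h replicate 2, 3 or 4 (0.0599 to 0.0685). *Trem2*, at 0.18 (SE 0.06, adjusted p = 0.0508), and *Sirpa*, at -0.12 (SE 0.04, adjusted p = 0.0513), lay just above the p-value threshold, with no overlap of the libraries. *Pirb* had -0.07 (SE 0.04, adjusted p = 0.347), *Cd300lf* 0.12 (SE 0.07, adjusted p = 0.264) and *Cd300ld* -0.01 (SE 0.09, adjusted p = 0.948). By the adjusted p-value alone 4 of 9 genes passed, *Cd300a* among them, against 13.9% of all genes tested. The libraries of the genotypes did not overlap for 5 of 9 genes after 3 h, against 30.0% of all genes tested, and for 7 of 9 after 24 h, against 33.1%. The median log2 fold change of the 9 genes was 0.12 after 3 h and -0.01 after 24 h, beside -0.0052 and 0.0056 over all genes tested.

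**Figure D4:**
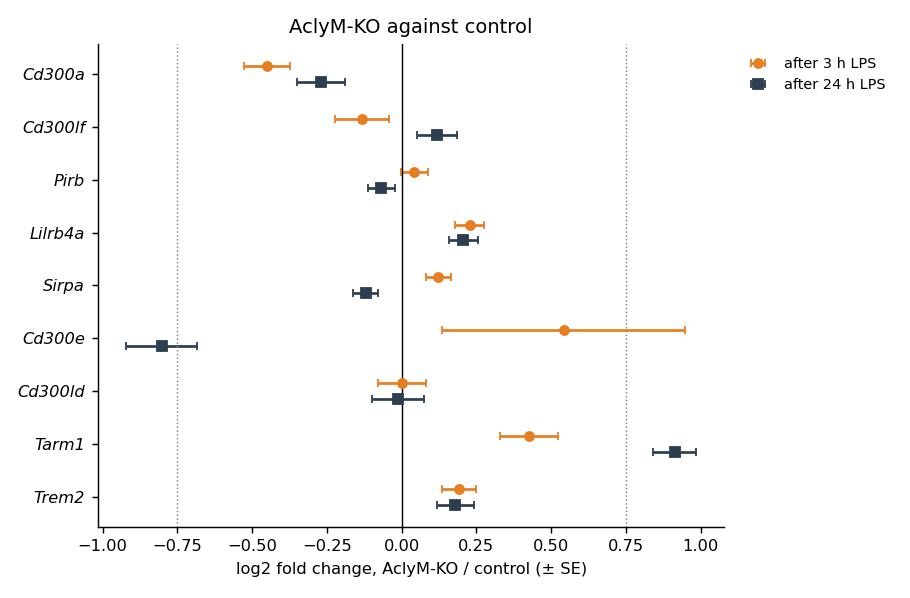
Log2 fold change of AclyM-KO against control macrophages for the 9 genes tested, after 3 h (circles) and 24 h LPS (squares), with SE from the fit of 12 libraries. Dotted lines mark the fold threshold of 0.75. *Tarm1* moved from 0.43 to 0.91, *Cd300e* from 0.54 to -0.80 and *Sirpa* from 0.12 to -0.12.

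Whether the genotype difference itself changed with time was tested by the interaction of genotype and time, which had an adjusted p-value under 0.05 for 3 of the 9 genes and for 9.52% of all genes tested. *Tarm1* and *Cd300e*, already chosen on these libraries, are among the 3, so this count is a description and not independent evidence. For *Tarm1* the genotype difference was larger after 24 h, by 0.49 on the log2 scale (SE 0.12, adjusted p = 0.00858 by edgeR). For *Cd300e* it was lower, by -1.34 (SE 0.42, adjusted p = 0.0404). For *Sirpa*, higher in AclyM-KO macrophages after 3 h and lower after 24 h in every library, it was -0.24 (SE 0.06, adjusted p = 0.00752). The log2 fold change of *Sirpa* between genotypes was under 0.15 in size at each time. *Sirpa* had 6 transcript rows, and only the row used here held these counts. The other rows of *Sirpa* were not compared. The interaction of *Cd300e*, with 5 to 17 counts per library after 3 h, had an adjusted p-value over 0.05 without any 1 of 7 libraries (AclyM-KO 3 h replicate 3, AclyM-KO 24 h replicates 1 and 3, control 3 h replicates 2 and 3, control 24 h replicates 2 and 4), up to 0.244. That of *Tarm1* had 0.0508 without control 3 h replicate 1, and that of *Sirpa* had 0.226 with control 24 h replicate 1 in the fit. *Cd300a*, *Cd300ld*, *Cd300lf*, *Trem2*, *Pirb* and *Lilrb4a* had interactions of -0.11 to 0.25 with adjusted p-values of 0.169 to 0.966, and without AclyM-KO 3 h replicate 1 *Cd300a* had 0.29 (adjusted p = 0.0431), and without AclyM-KO 3 h replicate 2 *Cd300lf* had 0.32 (adjusted p = 0.0483).

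The adaptors and phosphatases that serve these receptors were read from a list of 36 genes, 35 of which were tested. *Tyrobp*, the DAP12 adaptor of *Trem1*, *Trem2* and *Cd300e*, was 309 ± 1.60 CPM in control and 279 ± 6.26 CPM in AclyM-KO macrophages after 3 h, and 185 ± 4.66 against 140.4 ± 3.47 CPM after 24 h (SD, n = 3 each). The AclyM-KO libraries lay below the controls at both times, with log2 fold changes of -0.15 (SE 0.05, adjusted p = 0.0250) and -0.39 (SE 0.05, adjusted p = 4.76e-07), both under the fold threshold, and an interaction of -0.24 (adjusted p = 0.0162). *Fcer1g*, the adaptor of *Tarm1* and *Cd300ld*, had log2 fold changes between genotypes of -0.08 (adjusted p = 0.346) and -0.11 (adjusted p = 0.197), and *Syk* had -0.04 and 0.10 (adjusted p = 0.706 and 0.214). *Hcst* (DAP10) had 0.29 and 0.36 (adjusted p = 0.373 and 0.297).

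With time, the phosphatase genes of the inhibitory receptors moved apart in control macrophages. *Inpp5d* rose from 41.2 ± 0.95 to 108 ± 3.77 CPM (log2 fold change 1.39, SE 0.06, adjusted p = 1.34e-19) and *Ptpn6* from 119 ± 2.61 to 245 ± 8.60 CPM (1.04, SE 0.05, adjusted p = 3.71e-18), while *Ptpn11* went from 77.4 ± 0.86 to 53.1 ± 1.50 CPM (-0.54, SE 0.05, adjusted p = 1.36e-10, under the fold threshold). In AclyM-KO macrophages *Inpp5d* rose by 1.45, and *Ptpn6* had 0.72, under the fold threshold. Between genotypes *Ptpn6* had -0.24 after 24 h (SE 0.05, adjusted p = 7.26e-04) and an interaction of -0.32 (adjusted p = 0.00249). *Inpp5d* and *Ptpn11* had log2 fold changes between genotypes of -0.0041 and 0.05 after 3 h and 0.06 and 0.11 after 24 h, with adjusted p-values of 0.201 to 0.977.

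Of the 35 adaptor and signalling genes tested, 1 was changed between genotypes after 3 h and 0 after 24 h by both thresholds of edgeR's test, against 2.00% and 1.37% of all genes tested. The changed gene was *Fgr*, a Src family kinase, at 5.63 ± 0.31 CPM in control and 2.55 ± 0.82 CPM in AclyM-KO macrophages (log2 fold change -1.16, SE 0.20, adjusted p = 1.5e-04). After 24 h *Fgr* had -0.72 (SE 0.19, adjusted p = 0.00866), under the fold threshold. Log2 fold changes were positive for 16 and negative for 19 genes after 3 h, and for 14 and 21 after 24 h. Under the fold threshold, *Sh2b3* had 0.63 after 3 h (adjusted p = 5.82e-06) and *Src* 0.51 after 24 h (adjusted p = 2.44e-06). *Sh2b3* and *Src* were named after their values were seen. The list's median log2 fold change was -0.0041 after 3 h and -0.03 after 24 h. An interaction was found for 7 of the 35 genes, 3 positive and 4 negative, against 9.52% of all genes tested. With time, 6 rose and 7 fell in control and 6 rose and 10 fell in AclyM-KO macrophages, near the 40.4% and 41.9% of all genes tested that changed.

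Relatives of the receptors in the same families were taken from a list of 49 genes, of which 35 were in the table and 27 were tested. After 3 h, *Lilra6* and *Sirpb1c* were higher in AclyM-KO macrophages, and after 24 h none of the 27 passed both thresholds, against 2.00% and 1.37% of all genes tested. *Lilra6*, of the PIR-A group of activating receptors, was 3.36 ± 0.51 CPM in control and 7.21 ± 0.53 CPM in AclyM-KO macrophages after 3 h (log2 fold change 1.10, SE 0.18, adjusted p = 4.39e-05), and 2.60 ± 0.81 against 2.61 ± 0.28 CPM after 24 h. *Sirpb1c*, an activating relative of *Sirpa*, held 8, 5 and 5 counts in control and 13, 18 and 12 counts in AclyM-KO libraries after 3 h (log2 fold change 1.20, SE 0.40, adjusted p = 0.0398). The count of changed relatives was 1 in place of 2 without AclyM-KO 3 h replicate 2 or 3, or without control 3 h replicate 2 or 3. By the adjusted p-value of edgeR alone, *Lair1* (-0.66), *Siglece* (-0.62), *Pilra* (-0.58) and *Siglec1* (-0.46) were lower in AclyM-KO macrophages after 24 h, each at most 0.00101. *Cd33* (0.27, adjusted p = 0.00658) and *Lilr4b* (0.16, adjusted p = 0.0352) were higher, and 13.9% of all genes tested passed. After 3 h, besides *Lilra6* and *Sirpb1c*, *Pira2* (0.53), *Lilr4b* (0.30), *Milr1* (0.26) and *Cd200r1* (0.21) were higher by that measure. *Siglec1* (-0.45) and *Cd300c2* (-0.22) were lower after 3 h. Each had an adjusted p-value of at most 0.0321, and 15.4% of all genes tested passed after 3 h. The interaction of *Siglec1* was -0.02 (adjusted p = 0.958). These genes were named after their values were seen. The list's median log2 fold change was 0.06 after 3 h and -0.06 after 24 h. Interactions, all lower after 24 h, were found for *Lair1*, *Lilra6*, *Pilra*, *Pira2* and *Sirpb1c*, of which *Lair1*, *Pilra* and *Pira2* were named after their values were seen. An interaction was found for 9.52% of all genes tested. With time, 10 of the 27 relatives rose and 4 fell in control, where 20.9% of all genes tested rose and 19.5% fell, and 9 rose and 6 fell in AclyM-KO macrophages, where 41.9% changed. *Trem3*, a neighbour of *Trem1*, had 0 to 20 counts per library and was not tested.

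Of 12 genes of reported ligands, 9 were tested. *Cd47*, the ligand of *Sirpa*, was 213 ± 12.3 CPM in control and 215 ± 3.37 CPM in AclyM-KO macrophages after 3 h, and 207 ± 16.05 against 212 ± 4.49 CPM after 24 h, with log2 fold changes of 0.01 (SE 0.05, adjusted p = 0.915) and 0.03 (SE 0.05, adjusted p = 0.751). *Angptl2*, an angiopoietin-like protein of the family that binds PIR-B, was higher in AclyM-KO macrophages after 24 h, at 9.64 ± 1.46 against 5.59 ± 0.45 CPM (log2 fold change 0.81, SE 0.14, adjusted p = 1.97e-04). Without AclyM-KO 24 h replicate 1 or without control 24 h replicate 4, *Angptl2* no longer passed both thresholds. None of the ligand genes was changed between genotypes after 3 h and 1 of the 9 was changed after 24 h, against 2.00% and 1.37% of all genes tested. Their median log2 fold change was 0.18 after 3 h and 0.03 after 24 h. By the adjusted p-value of edgeR alone, *Lgals3* (0.34) and *H2-K1* (0.18) were higher and *Thbs1* (-0.35) lower after 3 h, each at most 0.00475. Besides *Angptl2*, *Cd200* was higher after 24 h (0.43, adjusted p = 2.65e-05). Shares over all genes tested were 15.4% and 13.9%. Interactions were found for *Thbs1* (0.45) and *H2-K1* (-0.23). *Lgals3*, *H2-K1*, *Thbs1* and *Cd200* were named after their values were seen.

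Among the marker lists, 2 of 7 neutrophil markers tested were changed between genotypes after 3 h, against 2.00% of all genes tested. The rest were split: *Csf3r* had -0.21 (adjusted p = 0.0309 by edgeR), *Ngp* -0.16, *S100a8* -0.12, *S100a9* 0.20 and *Ltf* 0.23 on the log2 scale. *Mmp8* was 7.21 ± 0.47 CPM in control and 17.6 ± 3.07 CPM in AclyM-KO macrophages, and *Mmp9* 3.03 ± 0.36 against 8.90 ± 2.02 CPM. After 24 h none of the 7 was changed, and *Ly6g*, the defining marker, was at 0 throughout. The part of *Mmp8* and *Mmp9* in the receptor differences after 3 h was not tested. None of the 9 macrophage markers was changed between genotypes at either time.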

How the data were processed

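RNA-seq was made from BMDMs of control and AclyM-KO mice after 3 and 24 h LPS. The authors prepared strand-specific mRNA libraries, used STAR 2.5.2b for alignment to mm10, SAMtools for filtering and HOMER for tag counting. The deposited table holds raw counts, 1 row per RefSeq transcript and without normalization, and 0 columns were left unused. Of 35745 transcripts, 35628 were matched to a symbol through RefSeq and GENCODE M21 (GRCm38) tables, and unnamed transcripts held 0.67 to 1.46% of each library's counts. Each symbol was represented by its row with the highest total over the 13 libraries, which is the value the choice of rows used.

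Counts were normalized by TMM and tested with edgeR 4.0.16 on R 4.3.3 (filterByExpr on 4 groups, robust quasi-likelihood fit). Control 24 h replicate 1 was left out for its depth, which was known from earlier work on these data, and the paper gives n = 3. The 12 libraries, 3 per group, left 19621 transcripts of 11949 genes. Contrasts were genotype at each time, time in each genotype and their interaction, with Benjamini-Hochberg adjustment over all transcripts. Thresholds (adjusted p under 0.05, log2 fold change beyond 0.75) follow the paper's methods. Standard errors were derived from each log2 fold change with its F value, and CPM are TMM-scaled. Replicates differed by more than sampling noise (chi-square per degree of freedom 2.45 to 11.7). The fit was tested on simulated data. Alternatives were all 13 libraries, DESeq2-type size factors, no filter on low counts, DESeq2 1.42.0, the replicate number as a block, 1 transcript per gene, 2 groups per fit, and leaving out each library. The members, lists and named genes (all members, list genes changed between genotypes, and a fixed set of adaptors, phosphatases, *Cd47* and *Trem3*) were chosen with earlier results of these data known. Marker lists of macrophages and other cells were read for their levels. No protein sequences were used here.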

Additional observations from a re-analysis of the deposited data

Results flagged for a closer look

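Control 24 h replicate 1 stood apart from the other 3 control 24 h libraries in 7 of the 10 genes by Dixon's test. The test's rate of about 1 in 20 groups by chance holds for values of equal spread. That rate does not apply here, since 1 count in this library stood for 22.4 CPM. The gap to the nearest library, as a share of the range of the 4, was 0.9814 for *Cd300a*, 0.8945 for *Cd300lf*, 0.9089 for *Tarm1*, 0.9655 for *Trem2*, 0.9409 for *Pirb*, 0.8689 for *Lilrb4a* and 0.9243 for *Sirpa*. The library held 14 counts of *Trem2* (314 CPM, against 51.1 to 60.1 CPM in the other control 24 h libraries and 269.6 to 287 CPM in the control 3 h libraries) and 0 counts of *Cd300e*, *Cd300lf*, *Tarm1* and *Trem1*. A cause other than its 34467 counts was not tested.

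The genotype difference changed between the times for 3 genes by the interaction in edgeR's fit, by -1.344 for *Cd300e*, 0.4873 for *Tarm1* and -0.2421 for *Sirpa* on the log2 scale.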

How the results depend on the processing

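In 20 fits, 630 values of single receptor genes were recomputed, and 600 kept their direction and their call by both thresholds together (for interactions by the adjusted p-value), 14 lost a call, 2 gained one and 14 changed sign. Of the 600, 24 no longer had an adjusted p-value under 0.05 and 5 newly had one, all under the fold threshold: *Trem2*, *Sirpa* and *Cd300a* between genotypes, and *Pirb* (0.0551 with all 13 libraries) and *Lilrb4a* (0.0512) with time in AclyM-KO macrophages. Leaving out a library outside the groups compared moved no log2 fold change by more than 0.014 and changed no such call, although 12 values crossed an adjusted p-value of 0.05. Receptor genes changed after 3 h numbered 0 under every alternative, and those changed with time 6 to 7 in control and 6 in AclyM-KO macrophages. Interactions, 3 in the reported fit, numbered 2 to 4. After 24 h the 2 genes changed between genotypes became 1 in the fit with the replicate block, in which *Cd300e* had -0.65 (adjusted p = 0.00468), and 1 to 2 when a library was left out. The block tied libraries of the same replicate number across genotypes and times. Replicate number 4 occurred only in control 24 h, so the block in effect set that library aside. The fit with the block is therefore no test of pairing within a genotype. Replicate numbers did not clearly pair the libraries. The 15 same-numbered pairs correlated at -0.117 to 0.173 in their deviations from the group means, and differently numbered pairs at -0.167 to 0.171. Same-numbered pairs of 1 genotype after 3 and 24 h were at 0.023 to 0.119 in AclyM-KO and at 0.021 and 0.138 in control libraries. In 14 of 30 cases a library correlated best with its own number. By the numbers in the column headers, control 24 h replicate 4 comes first in its group, as control 3 h replicate 1 does in its own. These libraries correlated at 0.141, and control 24 h replicate 4 with control 3 h replicates 2 and 3 at 0.040 and -0.167. A fit paired by the header numbers was not run. Whether libraries of a genotype were paired, by the replicate numbers or otherwise, could not be decided from these correlations. The block gave *Cd300a* an adjusted p-value of 0.1104 after 24 h, left *Cd300e* without an interaction (-1.19, adjusted p = 0.0960) and turned *Cd300ld* after 24 h to 0.10, its interaction to 0.10 and the interaction of *Lilrb4a* to 0.015, and gave 1 adaptor gene changed after 24 h.

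With each library left out in turn, values near 0 changed sign: *Cd300ld* after 3 h -0.064 to 0.069, after 24 h -0.086 to 0.070 and its interaction -0.094 to 0.069, and the interactions of *Trem2* (-0.086 to 0.050) and *Lilrb4a* (-0.076 to 0.017). Relatives changed after 3 h, 2 in the reported fit, were 1 without the filter, 1 with DESeq2, 1 with 2 groups per fit and 1 to 2 without a library. Relatives changed after 24 h were 1 with 2 groups per fit. Adaptor genes changed after 24 h were 0 to 1 and ligand genes 0 to 1 without a library. Interactions among adaptor genes, 7 in the reported fit, were 3 with all 13 libraries and 4 to 8 without a library. Among ligand genes, 2 in the reported fit, they were 1 with all 13, 4 without the filter and 1 to 5 without a library. The cause of these changes was not tested. Depth limits *Trem1* at both times and *Cd300e* after 3 h.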
